A study of Danio rerio with 6 samples.

Results

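The cells described here were 89 of 1820 wells, each of 1 sorted cell, in which the apolipoprotein genes apoeb (ENSDARG00000040295) and apoc1 (ENSDARG00000092170) together held at least 2% of the well's transcripts, with at least 10 transcripts of the pair. Wells were kept with 500 or more gene transcripts, spike-in RNA not counted, and wells with 0.2% or more of the granulocyte genes npsn and EPX were set aside. That left 1555 non-granulocyte wells, of which the 89 apoeb/apoc1-high wells were compared with the other 1466 in the same libraries. The working label for these cells was microglia-like. The members were chosen on the levels of apoeb and apoc1, so those levels are given as a description with no test.

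The cells came from zebrafish larvae of the TL strain carrying Tg(mpeg1:mCherry), a transgene that places the red fluorescent protein mCherry under the promoter of mpeg1, a gene active in macrophages. All larvae, injured or not, were raised in PTU, which blocks pigment formation. The injured groups received a needle puncture of the dorsal trunk muscle at 4 days post fertilisation (dpf), and the injured region was dissected at 1, 2 and 3 days post injury (dpi), at 5, 6 and 7 dpf. The uninjured group was whole larvae at 4 dpf, and live mCherry-positive cells of each group were sorted into 384-well plates for SORT-seq, a plate form of CEL-Seq2 with molecular barcodes. There were 2 libraries at 1 dpi, 1 at 2 dpi, 2 at 3 dpi and 1 uninjured. The labels do not say whether the 2 libraries of a time came from separate larvae, so p-values here measure the spread between libraries, which may be technical. The number of larvae pooled for a library is not given in the sources used here.

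Apolipoprotein E binds lipid particles and delivers them to cells through receptors of the LDL receptor family, and apolipoprotein C-I is a small exchangeable apolipoprotein of the same particles. In zebrafish larvae, high apoeb and ccl34b.1 are known from microglia, the resident macrophages of the brain, which clear dying neurons through engulfment receptors and a large lysosomal system. In mammals, high ApoE also marks lipid-handling macrophages outside the brain, and the yolk syncytial layer of fish embryos makes apolipoproteins in bulk. The sort relied on a promoter-driven transgene and not on a microglial marker, and the injured tissue was trunk.

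In the apoeb/apoc1-high wells, the median share of apoeb plus apoc1 was 3.08% of transcripts in the uninjured library, 4.07% in both 1 dpi libraries, 6.09% at 2 dpi, and 4.81% and 4.04% at 3 dpi. The lowest share in a library was 2.02% to 2.17% and the highest 6.03% to 15.8%. Both genes were seen in 87 of the 89 wells. Of the other wells, 1329 held under 0.25% and 41 held 1% to 2%, and among the high wells 41 held 2% to 4%, 36 held 4% to 8% and 12 held 8% to 16%. The 5 wells just inside the threshold held 2.024%, 2.035%, 2.056%, 2.124% and 2.126%, and the 5 just outside held 1.949%, 1.946%, 1.925%, 1.900% and 1.891%. The distribution therefore ran on through the threshold with no empty range. In wells thinned to 500 transcripts, apoeb was seen in 96.6% of the high wells, 10.7% of the other wells and 3.77% of granulocyte wells. Unthinned, the shares for apoeb were 98.9%, 31.7% and 22.3% at median depths of 4848, 5445 and 3690 transcripts.

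**Figure D1:**
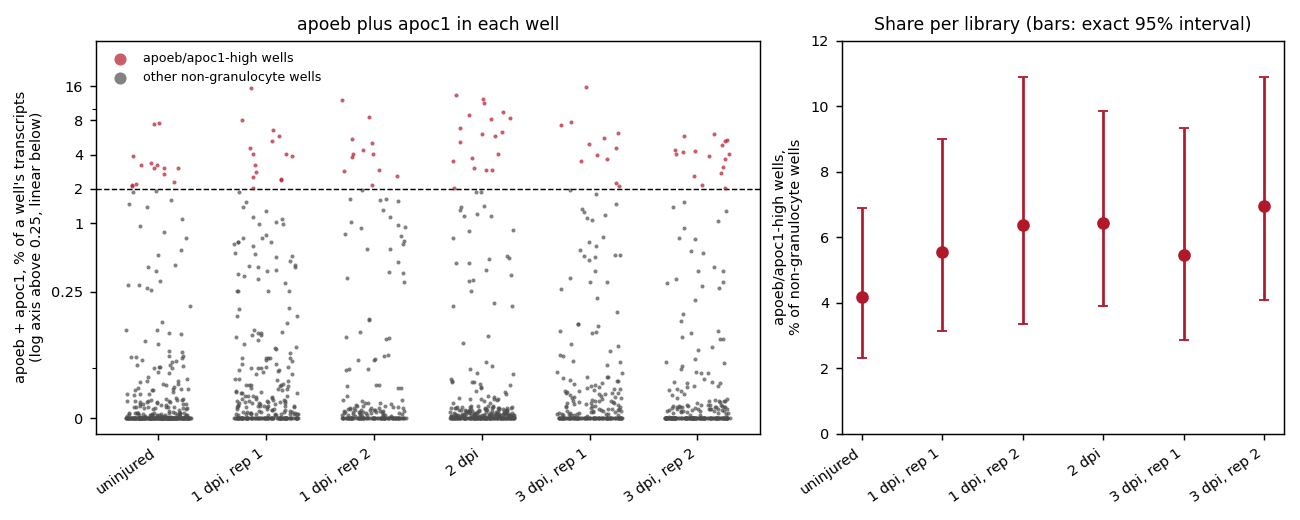
Left, apoeb plus apoc1 as a percentage of each well's transcripts (log axis above 0.25, linear below) in the 6 libraries, with the 2% threshold dashed and the 89 high wells in red. Right, high wells as a percentage of non-granulocyte wells per library with exact 95% binomial intervals, which overlap among all 6 libraries.

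The apoeb/apoc1-high wells were a small share of every library, injured or not. They were 15 of 270 non-granulocyte wells (5.56%, exact 95% binomial interval 3.14% to 9.0%) and 12 of 188 (6.38%, 3.34% to 10.9%) at 1 dpi. They were 19 of 296 (6.42%, 3.91% to 9.84%) at 2 dpi, and 12 of 220 (5.45%, 2.85% to 9.33%) and 17 of 245 (6.94%, 4.09% to 10.9%) at 3 dpi. In the uninjured library they were 14 of 336 (4.17%, 2.30% to 6.89%). All 5 injured libraries lay above the uninjured one, but each interval overlapped its interval. The injured mean was 6.15% ± 0.63 (SD, n = 5) against 4.17% in the 1 uninjured library, a difference of 1.98 points with a two-sided exact permutation p of 0.167, the smallest that 5 libraries against 1 can give. At 3 dpi the mean was 6.20% ± 1.05 against 5.97% ± 0.585 at 1 dpi (SD, n = 2 each), a difference of 0.227 points with an exact permutation p of 1, where the smallest possible is 0.333. That difference turned to -0.186 points without 1 dpi replicate 1 and to -0.515 points without 3 dpi replicate 2. The uninjured cells came from whole larvae that were also younger, so injury, dissected region and age cannot be told apart. The intervals cover counting error only.

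The libraries held 209 to 364 kept wells and 1362264 to 8340837 transcripts, of which the apoeb/apoc1-high wells gave 60964 to 214257. Plates shared their 384 well names, and the high wells fell in 82 of these positions, with 7 positions used in more than 1 library. No high well held more than 50000 transcripts, against 18 of the other wells in the uninjured library and 1 at 2 dpi, and no doublet caller was run. Transcripts of the mCherry transgene were seen in 0% to 50.0% of high wells per library and in 10.6% to 40.3% of the other wells, and in 0 of the 14 uninjured high wells. Gene symbols in capitals are those of the human counterpart in the reference table.

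For tests across genes, each well was thinned to at most 3000 transcripts, and the wells of a class were summed within a library. The 4 genes of the selection (apoeb, apoc1, npsn and EPX) were removed before scaling. Values are given as CPM, each gene's count divided by the total of its sum and put on the usual common scale, and the sums held 28428 to 52878 transcripts for the high wells and 485747 to 796075 for the other wells. The wells were separated on transcripts measured in the same wells, so genes that vary with apoeb and apoc1 were bound to differ, and the tests below show how far a difference repeated over 6 libraries.

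Against the other wells, the apoeb/apoc1-high wells carried more of the chemokine gene ccl34b.1, of the engulfment receptor genes havcr1 and stab1, of the cathepsin L gene ctsla and of PSAP. They carried less of the invariant-chain genes cd74a and cd74b, of ACOD1, and of keratin genes. Of 2807 genes tested with edgeR's quasi-likelihood test with the library as a block, 312 (11.1%) passed a Benjamini-Hochberg adjusted p of 0.05. Of these, 100 (3.56%) were higher and 212 (7.55%) lower in the high wells, and the median log2 difference over all tested genes was -0.12. DESeq2 called 270 genes, 117 higher and 153 lower.

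The microglia list, 20 symbols of which 16 were in the files, gave 7 tested genes, with 4 higher, 0 lower and 3 not passing, and a median log2 difference of 0.86 against -0.12 over all genes. The chemokine gene ccl34b.1 had 9693 CPM in the uninjured high wells, 2900.1 and 2534 CPM at 1 dpi, 6770.3 CPM at 2 dpi, and 9533 and 5515 CPM at 3 dpi. Among the other wells ccl34b.1 had 1130.0 CPM in the uninjured library, 439 and 226 CPM at 1 dpi, 333 CPM at 2 dpi, and 429 and 186 CPM at 3 dpi. Every library of high wells stood above every library of other wells, and the difference was 3.62 on the log2 scale (SE 0.21, edgeR adjusted p = 1.1e-14). By wells, ccl34b.1 was seen in 86 of the 89 high wells, 594 of the 1466 other wells and 36 of the 265 granulocyte wells, and after thinning to 500 transcripts in 80.9%, 12.5% and 3.02%. Its median share per high well ran between 0.177% and 0.969% of transcripts over the 6 libraries, against 0% to 0.0175% in the other wells.

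The gene havcr1 (Tim-1), a phosphatidylserine receptor, had 932 CPM in the uninjured high wells, 641 and 729 CPM at 1 dpi, 1399 CPM at 2 dpi, and 528 and 653 CPM at 3 dpi. The other wells had 304 CPM of havcr1 uninjured, 383 and 299 CPM at 1 dpi, 289 CPM at 2 dpi, and 179 and 104 CPM at 3 dpi, with no overlap. The difference for havcr1 was 1.49 (log2, SE 0.25, edgeR adjusted p = 1.12e-05). The gene SLC7A7, an amino acid transporter needed for microglial colonisation of the zebrafish brain, was 0.86 higher (log2, SE 0.19, edgeR adjusted p = 0.000839), with 1209 to 1910.0 CPM in the high wells against 449 to 1007 CPM in the other wells. The receptor kinase gene mertka was 1.54 higher (log2, edgeR adjusted p = 0.0251), with 0 to 194 CPM in the high wells against 23.1 to 40.2 CPM in the other wells. These groups overlapped, and the call for mertka was lost without 1 dpi replicate 2, 2 dpi, or either 3 dpi library (edgeR adjusted p of 0.0678 to 0.108). ENTPD1 (0.34) and the complement gene c1qb (-0.84) were among the genes that did not pass.

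The other microglial markers below did not pass the filter on low counts for the test across genes, apart from c1qb, which was tested. Some had no counts in the thinned sums of the high wells. The thinned sums held 223590 transcripts of the high wells and 3738507 of the other wells. P2RY12, a purinergic receptor of resting microglia in mammals, had 13 counts (58.1 CPM) in the high wells against 58 counts (15.5 CPM) in the other wells. The ratio for P2RY12 was 3.75 with a 95% counting interval of 1.88 to 6.92. The transporter gene slco2b1 had 59 counts (264 CPM) against 490 counts (131 CPM), a ratio of 2.01 (1.51 to 2.64). The receptor gene csf1rb had 9 counts against 57, a ratio of 2.64 (1.15 to 5.37). P2RY13 had 0 counts in these sums, which allows up to 13.4 CPM, against 79 counts (21.1 CPM) in the other wells. The complement genes c1qa, c1qb and c1qc had 3, 9 and 0 counts in the high-well sums, tmem119a and tmem119b had 0 and 0, and GPR34 had 1. Before thinning, P2RY12 was seen in 23 of the 89 high wells and 131 of the 1466 other wells. In the same order P2RY13 was seen in 2 and 169 wells, c1qa in 4 and 252, c1qb in 11 and 309, and tmem119b in 1 and 16. The marker list was thus met in part, and the cells are called apoeb/apoc1-high wells here.

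Across the engulfment list, 9 genes were tested, of which 5 were higher, 1 was lower and 3 did not pass, with a median log2 difference of 0.86 (all genes -0.12). The list shares havcr1, mertka and SLC7A7 with the microglia list, so their counts and medians are not separate, and SLC7A7 is a transporter rather than a receptor. Besides these, stab1, which encodes the scavenger receptor stabilin 1, had 705 CPM in the uninjured high wells, 169 and 127 CPM at 1 dpi, 454 CPM at 2 dpi, and 457 and 532 CPM at 3 dpi. For stab1 the other wells had 102, then 47.9 and 30.9, 66.6, and 97.7 and 94.0 CPM in the same order, all below every library of the high wells. The difference for stab1 was 2.2 (log2, SE 0.31, edgeR adjusted p = 1.78e-07). The integrin gene ITGAV was 0.97 higher (edgeR adjusted p = 0.0337), a call lost without 2 dpi or either 3 dpi library (edgeR adjusted p of 0.0674 to 0.191). The scavenger receptor gene marco went the other way, at 75.5 to 340.4 CPM in the high wells against 286 to 362 CPM in the other wells (log2 -0.95, edgeR adjusted p = 0.0265), a call lost without the uninjured library or 3 dpi replicate 1 (edgeR adjusted p of 0.0812 to 0.126).

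In lipid handling, 18 genes were tested, with 3 higher, 0 lower, 15 not passing and a median log2 difference of 0.56. PSAP, the precursor of saposins that help lysosomal enzymes to degrade sphingolipids, was 1.04 higher (log2, SE 0.17, edgeR adjusted p = 2.75e-06). PSAP had 1451 to 5352 CPM in the high wells against 728 to 1903 CPM in the other wells, and was higher in each library although the ranges overlapped. Copies of the cholesterol exporter gene followed, with ABCA1 0.85 higher (edgeR adjusted p = 0.0123) and abca1b 0.93 higher (edgeR adjusted p = 0.00829). The call for ABCA1 was lost without 2 dpi or 3 dpi replicate 1 (edgeR adjusted p of 0.0687 to 0.111) and that for abca1b without 2 dpi (edgeR adjusted p = 0.0701). Outside the lists, g0s2, which in mammals encodes an inhibitor of adipose triglyceride lipase, was 4.54 higher (log2, SE 0.85, edgeR adjusted p = 0.0237). Its level was 1309 CPM in the uninjured high wells, 1416 and 1299 CPM at 1 dpi, 2005 CPM at 2 dpi, and 2357 and 1113 CPM at 3 dpi. The other wells had g0s2 at 16.8, then 239 and 189, 102, and 19.9 and 1.74 CPM, with no overlap. The call for g0s2 was lost without the uninjured, the 2 dpi or the 3 dpi replicate 1 library (edgeR adjusted p of 0.0753 to 0.109).

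Lysosomal proteases split by gene. Of 11 cathepsin genes tested, 3 were higher, 2 lower and 6 did not pass, with a median log2 difference of 0.43. The cathepsin L gene ctsla had 2971 CPM in the uninjured high wells, 4215 and 5448 CPM at 1 dpi, 3442 CPM at 2 dpi, and 2673 and 1935 CPM at 3 dpi. For ctsla the other wells had 708, then 2025 and 2674, 1012, and 704 and 843 CPM, so the high wells were above within each library (log2 1.28, SE 0.17, edgeR adjusted p = 2.2e-08). The cathepsin S gene ctss2.1 had 277, then 1720.0 and 1235, 321, and 668 and 411 CPM in the high wells, against 1685, then 3668 and 2409, 1484, and 1178 and 1072 CPM in the other wells, lower in every library (log2 -1.67, SE 0.21, edgeR adjusted p = 3.14e-09). CTSD (0.57), ctsf (1.17) and ctss2.2 (-0.65) also passed, and each lost its call without 4 or 5 of the 6 libraries left out singly, with edgeR adjusted p up to 0.118 for CTSD, 0.279 for ctsf and 0.171 for ctss2.2. None of 29 further lysosome genes passed (median 0.09).

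The other named genes that were higher in the high wells of every library were tgm2l, BZW2, cldc1, MCAM, GPD1, lgals9l1, PMEPA1, ENSDARG00000069054 and ENSDARG00000003836, with log2 differences of 1.94 to 4.71. The transglutaminase gene tgm2l had 504 CPM in the uninjured high wells, 135 and 443 CPM at 1 dpi, 435 CPM at 2 dpi, and 281 and 460 CPM at 3 dpi, against 3.48 to 25.8 CPM in the other wells (log2 4.71, SE 0.40, edgeR adjusted p = 5.46e-15). It was seen in 48 of the 89 high wells, 81 of the 1466 other wells and 4 of the 265 granulocyte wells, and after thinning to 500 transcripts in 15.7%, 0.887% and 0.755%. BZW2, which encodes a regulator of translation initiation, was 4.70 higher (edgeR adjusted p = 7.94e-14) and was seen in 47 high wells and 76 other wells. MCAM, the adhesion molecule CD146, was 2.79 higher, at 190.1 to 677 CPM against 19.8 to 72.9 CPM (edgeR adjusted p = 8.58e-09). The galectin gene lgals9l1, a macrophage marker in zebrafish, was 2.08 higher (edgeR adjusted p = 2.18e-09).

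**Figure D2:**
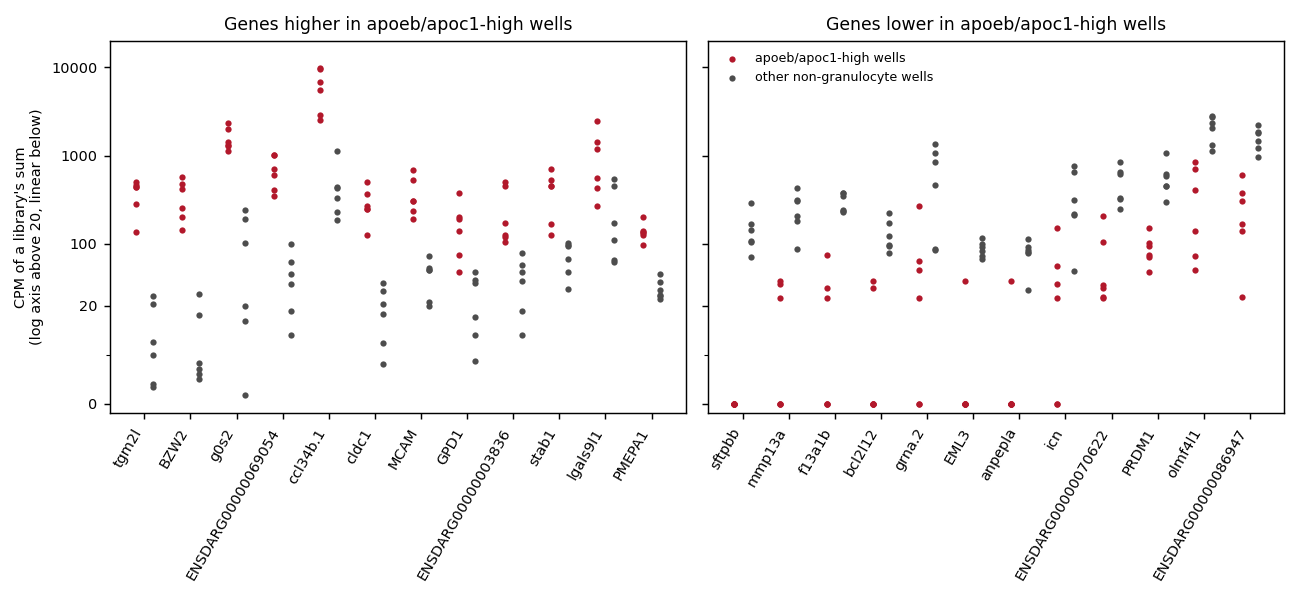
CPM of each library's sum (log axis above 20, linear below) for the 12 named genes higher and the 12 named genes lower in apoeb/apoc1-high wells (red, 6 libraries) than in other non-granulocyte wells (grey, 6 libraries). For ccl34b.1 the red points lie at 2534 CPM or above and the grey points at 1130.0 CPM or below.

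Macrophage genes as a list stood near the average of all genes. Of 12 tested, 1 was higher (lgals9l1), 2 were lower (cybb and marco) and 9 did not pass, with a median log2 difference of -0.11 (all genes -0.12). The lower gene marco is also counted in the engulfment list. The mpeg1 copy ENSDARG00000055290 had 371 to 1097 CPM in the high wells against 257 to 578 CPM in the other wells and did not pass (log2 0.56, edgeR adjusted p = 0.163). This copy was seen in 77.5% of the high wells, 62.8% of the other wells and 7.17% of granulocyte wells, and in 33.7%, 17.1% and 1.51% after thinning to 500 transcripts. The NADPH oxidase subunit gene cybb was lower (log2 -1.33, SE 0.34, edgeR adjusted p = 0.00376), at 25.2 to 236 CPM in the high wells against 226 to 342 CPM in the other wells. When only other wells with a transcript of mpeg1, marco or mfap4 served for comparison, 267 genes passed.

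Some antigen-presentation and inflammatory genes were lower in the high wells. Of 6 antigen-presentation genes tested 0 were higher and 3 lower (median log2 -0.59), and of 11 inflammatory genes 0 were higher and 5 lower (median -0.25). The summed levels of both lists were lower in the high wells in 3 of 6 libraries, at 1719.8 to 4854 CPM against 2028 to 4006 CPM for antigen presentation and 5092 to 11659 CPM against 5749 to 12606 CPM for the inflammatory list. The dendritic-cell marker gene cd83 had 2417 CPM in the uninjured high wells and 3166 CPM at 3 dpi replicate 1, against 1042 and 1196 CPM in the other wells of those libraries, and did not pass over all 6 (log2 0.11, edgeR adjusted p = 0.868). The invariant-chain gene cd74a had 0 CPM in the uninjured high wells, 33.7 and 63.4 CPM at 1 dpi, 75.7 CPM at 2 dpi, and 211 and 72.6 CPM at 3 dpi, against 193, then 51.2 and 22.6, 344, and 415 and 298 CPM in the other wells (log2 -1.92, SE 0.44, edgeR adjusted p = 0.00137). It was lower in 5 of 6 libraries, and its copy cd74b was at 0 in 4 libraries of high wells (log2 -2.56, edgeR adjusted p = 0.000227). ACOD1, which makes itaconate in activated macrophages of mammals, had 176 CPM in the uninjured high wells, 1079 and 1172 CPM at 1 dpi, 946 CPM at 2 dpi, and 457 and 387 CPM at 3 dpi. For ACOD1 the other wells had 997, then 1751 and 1902, 1791, and 762 and 895 CPM, so it was lower in the high wells of each library (log2 -1.26, SE 0.21, edgeR adjusted p = 1.38e-05). The metalloproteinase gene mmp13a had 4 counts in the thinned sums of the high wells against 925 in those of the other wells (log2 -4.04, edgeR adjusted p = 2.35e-08). Before thinning it was seen in 11.2% of the high wells, 30.7% of the other wells and 95.1% of granulocyte wells. GPR84 (-1.22), MMP9 (-1.38), tnfb (-0.79) and cd40 (-0.97) also passed. MMP9 lost its call without 2 dpi (edgeR adjusted p = 0.0535). The call for tnfb was lost without either 1 dpi library or 2 dpi (edgeR adjusted p of 0.0648 to 0.104), and that for cd40 without 1 dpi replicate 2, 2 dpi or 3 dpi replicate 2 (edgeR adjusted p of 0.0814 to 0.177).

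Among the named genes lower in the high wells, sftpbb, a gene of the saposin-like surfactant protein B, had 0 counts in all 6 high-well sums against 578 counts in the other wells, at least 11.5-fold lower by a floor of 3 counts over the group. Without thinning it was seen in 4 of the 89 high wells and 547 of the 1466 other wells. PRDM1, a transcriptional repressor, had 75.5, then 101 and 95, 151, and 70.3 and 48.4 CPM in the high wells, against 294, then 454 and 583, 1083, and 612 and 451 CPM in the other wells. No library overlapped for PRDM1 (log2 -2.87, SE 0.33, edgeR adjusted p = 6.5e-10). The coagulation factor XIII gene f13a1b was lower (log2 -3.79, edgeR adjusted p = 8.85e-09), as was olmf4l1 (log2 -2.87, edgeR adjusted p = 0.0109), a call lost without 3 dpi replicate 1 (edgeR adjusted p = 0.0595). The transcription factor gene RUNX3, with 2 counts in the thinned sums of the high wells, was lower too (log2 -3.33, edgeR adjusted p = 0.00326), the only one of 18 tested macrophage transcription factor and receptor genes to pass. For bcl2l12, EML3 and anpepla, with 3, 2 and 2 counts in the thinned sums of the high wells, the other wells were 9.85-fold (95% counting interval 3.35 to 47.9), 9.90-fold (2.72 to 82.1) and 8.85-fold (2.43 to 73.4) higher. The ferritin gene fth1a was lower over the libraries as a whole (log2 -0.95, edgeR adjusted p = 0.00299), at 478 CPM uninjured, 775 CPM at 2 dpi, and 704 and 314 CPM at 3 dpi in the high wells, against 1216, 2044, and 1378 and 808 CPM in the other wells. At 1 dpi it was not lower, with 3338 and 1616 CPM in the high wells against 2829 and 1618 CPM in the other wells. Of the other named genes, ENSDARG00000070622 differed by -3.00 and ENSDARG00000086947 by -2.84 on the log2 scale (edgeR adjusted p of 2.36e-09 and 1.78e-07).

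Keratinocyte, metaphocyte and granulocyte markers were lower in the high wells, and other lists varied by library. All 4 tested keratinocyte genes were lower (median log2 -2.54), both tested metaphocyte genes were lower (median -2.82), and both granulocyte genes, mmp13a and MMP9, were lower (median -2.71). Since mmp13a and MMP9 are also among the lower inflammatory genes, the granulocyte and inflammatory counts are not separate. The summed level of the keratinocyte list was 194 to 1787 CPM in the high wells against 1062 to 8275 CPM in the other wells, and that of the metaphocyte list, for epithelium-derived mpeg1-positive cells of fish skin, was 0 to 304 CPM against 136 to 2124 CPM. By wells, the median share of the keratinocyte list was 0% to 0.1205% in the high wells against 0.0656% to 0.197% in the other wells. This median was higher in the high wells only at 1 dpi replicate 1, at 0.0923% against 0.0846%. Single other wells held up to 14.6% of their transcripts in this list, against up to 0.76% for single high wells. The metaphocyte gene grna.2 was lower (log2 -3.52, edgeR adjusted p = 0.0205), a call lost without 2 dpi (edgeR adjusted p = 0.0859), and epcam had 1 count against 472 in the thinned sums. The epithelial S100 gene icn was lower in every library (log2 -3.11, edgeR adjusted p = 4.97e-07). The yolk syncytial layer and liver list, with 12 genes in the files, summed to 0 to 352 CPM in the high wells against 1.65 to 588 CPM in the other wells, and 8 of the 12, apoa1a, apoc2 and fabp10a among them, were at 0 in every high-well sum. The nerve cell and glia list summed to 0 to 285 CPM against 1.65 to 103 CPM, the highest value being that of the high wells at 1 dpi replicate 2, against 2.06 CPM in its other wells. In that library 1 of the 12 high wells held transcripts of the list, at 0.492% of its own. Each other library had 0 to 2 such high wells. The fibroblast list summed to 67.4 to 1737 CPM against 22.7 to 2824 CPM and was lower in the high wells in 3 of 6 libraries. Its 1 tested gene, the collagen gene COL5A1, did not pass (log2 1.4, edgeR adjusted p = 0.0756) and was seen in 32.6% of the high wells against 14.0% of the other wells. The part of these cells in the other differences was not tested, beyond the count of 267 genes with macrophage-marker wells alone.

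**Figure D3:**
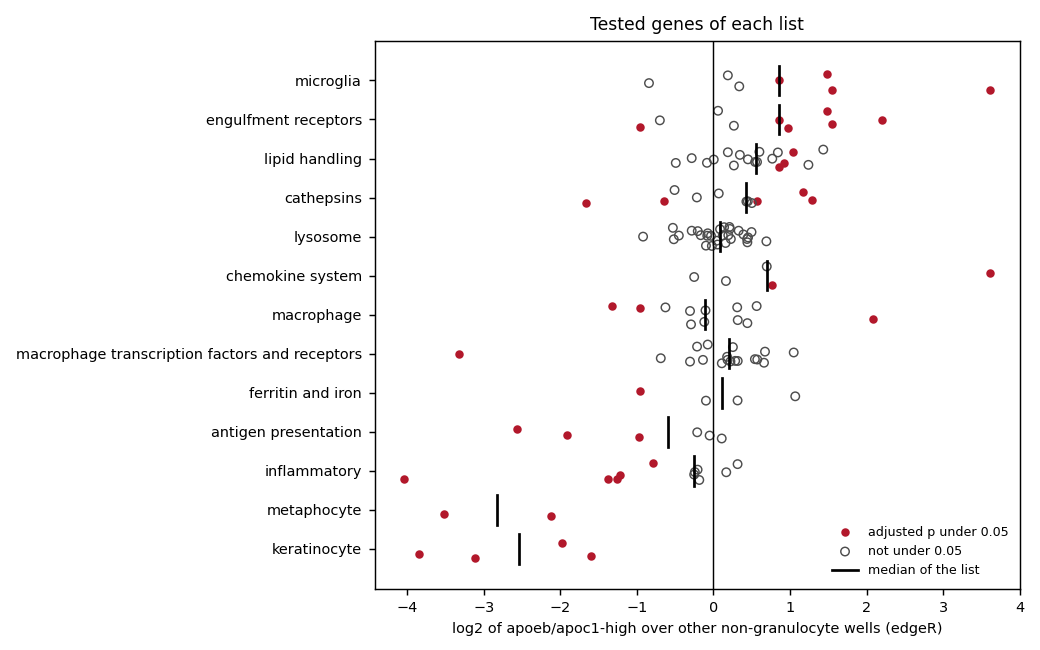
Log2 difference of apoeb/apoc1-high wells over other non-granulocyte wells (edgeR) for each tested gene of 13 lists, filled where the adjusted p was under 0.05, with the list's median as a bar. The microglia and engulfment medians lie at 0.86 and the keratinocyte and metaphocyte medians at -2.54 and -2.82.

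Between injured and uninjured apoeb/apoc1-high wells, few genes passed, and several of those that fell were muscle genes. Of 1034 genes tested in the high wells alone, 23 (2.22%) passed in edgeR's quasi-likelihood test, 4 (0.387%) higher and 19 (1.84%) lower in the mean of the injured times, with a median log2 difference of -0.04. The 1 uninjured library was assumed to vary like the others. All 4 tested skeletal muscle genes of the list, pvalb1, pvalb2, tpma and ckma, were lower. The creatine kinase gene ckma, at 31.7 CPM in 1 injured library and 0 CPM in the other 4 against 478 CPM uninjured, lost its call without any 1 of the injured libraries (edgeR adjusted p of 0.0578 to 0.578). The parvalbumin gene pvalb2 had 0 CPM in all 5 injured libraries against 1989 CPM in the uninjured one, at least 122-fold lower (edgeR adjusted p = 3.49e-19). MYL1, MYL11, tpma and atp2a1 of the contractile and calcium-handling apparatus, and the creatine kinase gene ckmb, were also at 0 in the thinned sum of every injured library. They were at least 32.4-fold to 117-fold lower. Before thinning, pvalb2 was seen in 1 high well of each 1 dpi library. MYL1 was seen in 1 at 2 dpi and 1 at 3 dpi replicate 1, and ckmb in 1 at 3 dpi replicate 2. The parvalbumin gene pvalb1, with 1 count in the injured libraries, was 255-fold lower with a 95% counting interval of 43.8 to 10237, and ENSDARG00000037840 was 164-fold lower (43.9 to 1383). Of these, MYL11 lost its call without 3 dpi replicate 2 (edgeR adjusted p = 0.0514), and atp2a1 without 1 dpi replicate 2 or either 3 dpi library (edgeR adjusted p of 0.0559 to 0.449).

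These muscle transcripts were spread over all uninjured wells. A transcript of the muscle list was present in all 14 uninjured high wells, at a median of 0.415% of transcripts (0.179% to 1.51%), and in 321 of the 322 other uninjured wells, at a median of 0.459%. In the injured libraries muscle transcripts were seen in 1 of 15, 2 of 12, 0 of 19, 1 of 12 and 0 of 17 high wells, and in 2.75% to 8.30% of the other wells. Yolk syncytial layer and liver transcripts were likewise seen in 9 of 14 uninjured high wells and 235 of 322 other wells (73.0%), against 0 or 1 high well in each injured library. The keratin gene krt4 (log2 -4.14, edgeR adjusted p = 3.01e-05) and the collagen gene col1a1a (log2 -7.15, edgeR adjusted p = 2.86e-07) were lower in the injured libraries as well, and in the other wells krt4 had 24.7 to 1635 CPM injured against 1931 CPM uninjured. Over the other wells the muscle list summed to 10.4 to 23.9 CPM in the injured libraries, against 11780 CPM uninjured.

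The 4 genes higher in injured high wells were cd9b, histh1l1, m17 and si:dkey-6n3.3. The tetraspanin gene cd9b had 1147 and 1552 CPM at 1 dpi, 473 CPM at 2 dpi, and 141 and 96.8 CPM at 3 dpi, against 0 CPM in the uninjured high wells, at least 8.35-fold higher (edgeR adjusted p = 0.00219). In the other wells cd9b had 237 to 902 CPM injured against 132 CPM uninjured. The gene m17, of an interleukin-6 family cytokine, had 438 and 792 CPM at 1 dpi, 416 CPM at 2 dpi, and 563 and 895 CPM at 3 dpi, against 25.2 CPM from 1 count in the uninjured high wells, 24.4-fold higher with a 95% counting interval of 4.29 to 973 (edgeR adjusted p = 0.00611). In pooled counts si:dkey-6n3.3 was 25.8-fold higher (95% counting interval 8.75 to 126). The fit of group means gave a log2 difference of 3.34 (SE 0.86, edgeR adjusted p = 0.00779), a call lost without 3 dpi replicate 1. The pooled ratio rests largely on 1 dpi, with levels of 5632 and 4783 CPM. Later injured high wells held 397 CPM (2 dpi), then 352 and 218 CPM (3 dpi), against 75.5 CPM from 3 counts uninjured. Among other wells the gene stood at 1825 and 2205 CPM (1 dpi), 530 CPM (2 dpi), then 162 and 195 CPM (3 dpi), with 232 CPM uninjured. For histh1l1, at least 4.18-fold higher (edgeR adjusted p = 0.0387) in the thinned sums though seen in 4 of the 14 uninjured high wells before thinning, the call was lost without 1 dpi replicate 1, 2 dpi or 3 dpi replicate 2 (edgeR adjusted p of 0.0569 to 0.111). Other wells had histh1l1 at 94.7 to 390 CPM injured against 80.0 CPM uninjured. The microglia list gave 0 of 6 genes in either direction, as did the lipid-handling, cathepsin, lysosome, engulfment and inflammatory lists, with 10, 11, 22, 6 and 10 genes tested. Of 14 tested macrophage transcription factor and receptor genes 1 was lower, NR4A1 (log2 -1.75, edgeR adjusted p = 0.026), a call lost without 1 dpi replicate 2, 2 dpi or either 3 dpi library (edgeR adjusted p of 0.0715 to 0.0936). DESeq2 called 4 genes in this contrast, and with wells thinned to 1000 transcripts 1 gene passed.

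The next comparison followed the high wells through the days after injury. At 3 dpi the lipid-droplet coat gene PLIN2, the repressor gene HES4 and RASGEF1B were higher than at 1 dpi, and the cathepsin K gene CTSK, annexin genes and fth1a were lower. Of the 1034 genes, 79 (7.64%) passed in edgeR's quasi-likelihood test, 36 (3.48%) higher and 43 (4.16%) lower at 3 dpi, with a median log2 difference of 0.00. The count was 48 without the uninjured library, 36 without 1 dpi replicate 1 and 29 without 3 dpi replicate 2, and DESeq2 called 19.

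Several genes stood high in the high wells at 1 dpi and low at 3 dpi. CTSK had 281 and 96.8 CPM at 3 dpi against 1349 and 3136 CPM at 1 dpi, with 775 CPM at 2 dpi and 126 CPM uninjured (log2 -3.72, SE 0.58, edgeR adjusted p = 6.49e-08). The genes si:dkey-119g10.4, at 35.2 and 96.8 CPM at 3 dpi against 5227 and 4118 CPM at 1 dpi (log2 -6.04, edgeR adjusted p = 4.34e-16), and si:ch211-198c19.3, at 176 and 48.4 CPM at 3 dpi against 1585 and 1235 CPM at 1 dpi (log2 -3.81, edgeR adjusted p = 1e-06), fell likewise. No library of 3 dpi overlapped those of 1 dpi in these genes, which the naming rule required. Before thinning, si:dkey-119g10.4 was seen in 1 of 12 and 4 of 17 high wells at 3 dpi against 9 of 15 and 8 of 12 at 1 dpi, and 1 well held 37.3% of its transcripts in the high wells. The phospholipid-binding annexin gene ANXA2 had 246 and 0 CPM at 3 dpi against 3237 and 855 CPM at 1 dpi (log2 -4.31, edgeR adjusted p = 1.95e-06), a call lost without the uninjured library (edgeR adjusted p = 0.0734). The versican gene vcanb was 13.3-fold lower (95% counting interval 4.19 to 67.6, edgeR adjusted p = 0.00196), and lost its call without 1 dpi replicate 1 (edgeR adjusted p = 0.119). The annexin gene anxa5b, at 0 CPM in both 3 dpi libraries, was at least 7.22-fold lower in the thinned sums, and was seen in 2 of 12 high wells of 3 dpi replicate 1 before thinning. The calls for anxa5b and SUCLG1 were lost without 4 and 6 single libraries (edgeR adjusted p up to 0.345 and 0.289), and si:dkey-6n3.3 (log2 -4.29, edgeR adjusted p = 6.26e-11) passed in all 15 alternatives. Of 11 cathepsin genes tested 4 fell (CTSK, CTSD, CTSZ and ctss2.1) and 1 rose (ctss2.2), with a median log2 change of -1.16 (all genes 0.00). Apart from CTSK, each of these cathepsin calls was lost without 2 to 5 single libraries, with edgeR adjusted p up to 0.477 for CTSD, 0.474 for CTSZ, 0.379 for ctss2.1 and 0.271 for ctss2.2.

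Of 22 further lysosome genes 3 fell, all of them subunits of the proton pump (ATP6V0D1, ATP6V1G1 and ATP6V0C), and 19 did not pass, with a median of -1.29. All 3 were lower at 3 dpi in the other wells as well. There ATP6V0D1 had 87.7 and 99.2 CPM at 3 dpi against 301 and 410 CPM at 1 dpi. ATP6V1G1 had 822 and 822 CPM against 2882 and 1845 CPM, and ATP6V0C 1822 and 1342 CPM against 4114 and 3695 CPM. The calls for ATP6V0D1 and ATP6V0C were lost without any 1 of the 6 libraries (edgeR adjusted p up to 0.246 and 0.359), and that for ATP6V1G1 without 1 dpi replicate 1 or either 3 dpi library (up to 0.359). The ferritin gene fth1a had 704 and 314 CPM at 3 dpi against 3338 and 1616 CPM at 1 dpi (log2 -2.41, edgeR adjusted p = 0.000298), a call lost without 1 dpi replicate 1 or 3 dpi replicate 2 (edgeR adjusted p of 0.104 to 0.153). The galectin gene lgals9l1 had 563 and 266 CPM at 3 dpi against 1416 and 2471 CPM at 1 dpi (log2 -2.36, edgeR adjusted p = 0.00051), a call lost without 3 dpi replicate 2 (edgeR adjusted p = 0.171). In the other wells lgals9l1 had 61.8 and 66.2 CPM at 3 dpi against 449 and 546 CPM at 1 dpi.

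Among genes higher at 3 dpi, RASGEF1B, an exchange factor for small GTPases, had 739 and 774 CPM at 3 dpi against 33.7 and 31.7 CPM at 1 dpi, with 416 CPM at 2 dpi and 1007 CPM uninjured. It was 23.3-fold higher at 3 dpi (95% counting interval 6.13 to 197, edgeR adjusted p = 5.16e-05). HES4 had 668 and 943 CPM at 3 dpi against 33.7 and 95 CPM at 1 dpi (log2 3.51, SE 0.80, edgeR adjusted p = 0.000767). The gene si:ch211-184m19.3 had 1372 and 798 CPM at 3 dpi against 101 and 127 CPM at 1 dpi (log2 3.1, edgeR adjusted p = 0.00051). The 3 dpi and 1 dpi libraries did not overlap for any of these genes, which the naming rule required. Of 14 tested macrophage transcription factor and receptor genes 3 rose (FOS 2.81, egr1 2.71 and NR4A1 1.90) and 11 did not pass (median 1.07). The call for FOS was lost without 3 dpi replicate 1 (edgeR adjusted p = 0.0705), that for egr1 without the uninjured, 1 dpi replicate 2 or 3 dpi replicate 1 library (edgeR adjusted p of 0.122 to 0.256), and that for NR4A1 without those or 3 dpi replicate 2 (edgeR adjusted p of 0.0599 to 0.403). Few wells carried FOS and egr1: FOS was seen in 4 of 12 and 6 of 17 high wells at 3 dpi against 5 of 15 and 1 of 12 at 1 dpi, and egr1 in 2 of 12 and 7 of 17 against 4 of 15 and 0 of 12. A single well held 39.0% of all FOS and 45.1% of all egr1 transcripts of the 89 high wells before thinning. The heat-shock gene hsp70.3 was 15.2-fold higher (4.92 to 76.2, edgeR adjusted p = 0.00196), a call lost without 1 dpi replicate 2 or 3 dpi replicate 2 (edgeR adjusted p of 0.0728 to 0.66). The sulfatase gene SULF2, ENSDARG00000078833, the repressor gene HES1 and JDP2 also passed, and each lost its call without 3 or 4 of the 6 libraries left out singly, with edgeR adjusted p up to 0.595, 0.641, 0.46 and 0.652.

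Of the microglia list, 0 of 6 tested genes passed in either direction between 3 dpi and 1 dpi (median 0.15). The list's lgals3bpb was not found under that symbol. Tested outside the list, lgals3bp.1 rose by 2.86 (log2, edgeR adjusted p = 5.16e-05) and passed in all 15 alternatives. The level of ccl34b.1, 9533 and 5515 CPM at 3 dpi against 2900.1 and 2534 CPM at 1 dpi, gave a log2 difference of 1.37 with an edgeR adjusted p of 0.0688. Of 10 lipid-handling genes 1 rose, PLIN2, and 9 did not pass (median 0.17). PLIN2 had 1055 and 1330.4 CPM at 3 dpi against 135 and 317 CPM at 1 dpi, with 1173 CPM at 2 dpi and 403 CPM uninjured (log2 2.31, SE 0.58, edgeR adjusted p = 0.00295). Its call was lost without 1 dpi replicate 1 or 3 dpi replicate 2 (edgeR adjusted p of 0.0627 to 0.125). The chemerin-receptor gene CMKLR1 rose by 1.53 (edgeR adjusted p = 0.0425), a call lost without any library but 2 dpi (edgeR adjusted p of 0.0501 to 0.247).

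Whether the high wells changed otherwise than the other wells of the same plates was asked with a fit of both sums, comparing their changes from 1 dpi to 3 dpi. This test was chosen after the values had been seen. Of 2807 genes, 41 (1.46%) passed in edgeR's quasi-likelihood test, 13 (0.463%) with the more positive change in the high wells and 28 (0.998%) with the more negative. PLIN2 went opposite ways, being higher at 3 dpi in the high wells but at 87.7 and 151 CPM at 3 dpi against 428 and 519 CPM at 1 dpi in the other wells. Its changes differed by 4.05 on the log2 scale (SE 0.61, edgeR adjusted p = 1.86e-08), and the range over 10 alternative settings was 3.53 to 4.65, all passing. The count of genes was 13 without 1 dpi replicate 1, 25 without 3 dpi replicate 1 and 18 without 3 dpi replicate 2.

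SQSTM1 and lgals3bp.1 were chosen after their values were seen. SQSTM1, which encodes the autophagy receptor p62, had 3447 and 4451 CPM at 3 dpi against 472 and 982 CPM at 1 dpi in the high wells, and 602 and 1049.7 CPM against 712 and 817 CPM in the other wells. Its changes differed by 2.02 (log2, SE 0.34, edgeR adjusted p = 1.39e-06), and the difference passed in all 10 settings. The gene lgals3bp.1, of a secreted galectin-3-binding protein, had 2286 and 2225 CPM at 3 dpi against 135 and 444 CPM at 1 dpi in the high wells, with 3046 CPM uninjured and 2175 CPM at 2 dpi. In the other wells lgals3bp.1 had 301 and 317 CPM at 3 dpi against 358 and 208 CPM at 1 dpi. Its changes differed by 2.41 (log2, SE 0.46, edgeR adjusted p = 6.34e-05), a call lost without 1 dpi replicate 1 (edgeR adjusted p = 0.336).

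The gene g0s2 had 2357 and 1113 CPM at 3 dpi against 1416 and 1299 CPM at 1 dpi in the high wells (log2 0.23, not passing), and 19.9 and 1.74 CPM against 239 and 189 CPM in the other wells. Its changes differed by 4.37 (log2, SE 0.59, edgeR adjusted p = 2.36e-10). Before thinning, g0s2 was seen in 7 of 12 and 7 of 17 high wells at 3 dpi. Among the other wells at 3 dpi it was seen in 7 of 208 and 1 of 228. A single well held 23.9% of the g0s2 transcripts of the 89 high wells. For si:dkey-119g10.4 the change was more negative in the high wells (log2 difference -3.26, edgeR adjusted p = 8.77e-06), since the other wells had 185 and 136 CPM at 3 dpi against 1348 and 1389.6 CPM at 1 dpi. The difference for g0s2 and for si:dkey-119g10.4 passed in all 10 settings. The changes of CTSK differed by -0.35 (SE 0.53, edgeR adjusted p = 0.924) and those of si:dkey-6n3.3 by -1.12 (SE 0.42, edgeR adjusted p = 0.27), neither of which passed. Among other genes that fell, the difference did not pass for CTSD, CTSZ, ctss2.1, vcanb, SUCLG1, si:ch211-198c19.3 or lgals9l1 (edgeR adjusted p of 0.465 to 0.947). Nor did it pass for the proton pump genes ATP6V0D1, ATP6V1G1 and ATP6V0C (0.557 to 0.594). For ccl34b.1 the changes differed by 1.21 (SE 0.26, edgeR adjusted p = 0.000782), a call lost without 1 dpi replicate 1 or 3 dpi replicate 2 (edgeR adjusted p of 0.268 to 0.442).

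**Figure D4:**
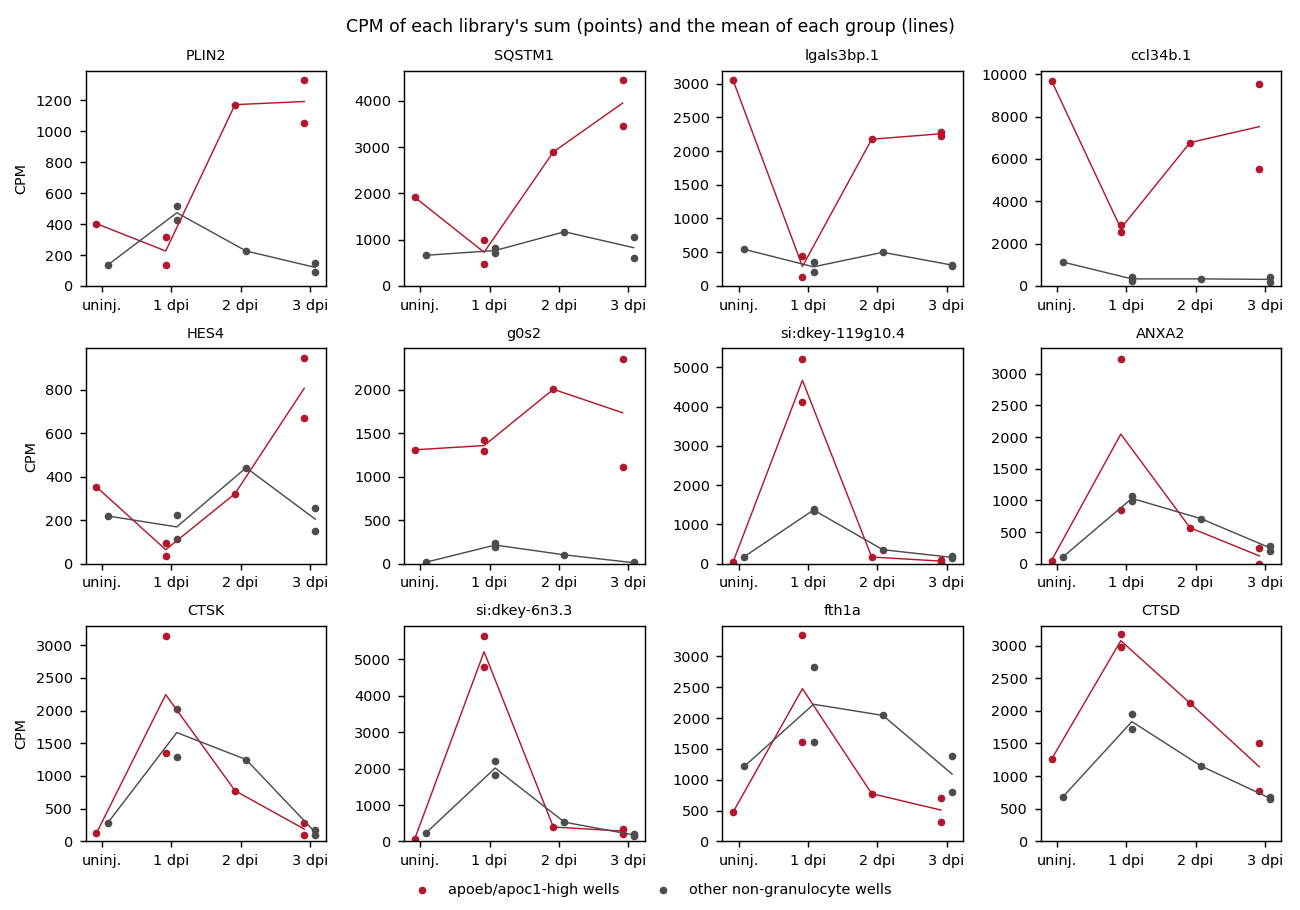
CPM of each library's sum (points) and group means (lines) over the uninjured, 1 dpi, 2 dpi and 3 dpi groups for 12 genes, with apoeb/apoc1-high wells in red and other non-granulocyte wells in grey and each panel on its own linear axis. PLIN2 in the high wells lies at 1055 and 1330.4 CPM at 3 dpi against 135 and 317 CPM at 1 dpi, while CTSK is lower at 3 dpi than at 1 dpi in both kinds of well.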

How the data were processed

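The study measured transcripts per well by SORT-seq in 6 libraries of 384 wells. The authors deposited expected counts, transcript numbers per gene and well that are not whole in the deposited tables. BWA and Zv9 are named in the submitters' processing notes. The counting and its corrections were not given in the sources used here. Zv9 gene identifiers were matched to symbols for 19001 of 25130 (75.6%).

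Wells were kept at 500 transcripts, and those over 3000 were thinned at random to 3000 after their expected counts had been rounded. Wells of a class were summed per library without the 4 selection genes and tested with edgeR 4.0.16 and limma 3.58.1 in R 4.3.3 (TMM, filterByExpr, robust quasi-likelihood fit, Benjamini-Hochberg adjusted p of 0.05). High and other wells were compared with library as a block, and times within the high wells in a fit with 2 residual degrees of freedom. Shares were tested by exact permutation, with exact 95% binomial intervals (scipy 1.17.1, Python 3.11.15). DESeq2 1.42.0, other caps, scalings, filters, thresholds and left-out libraries were alternatives. The fits were also run on counts simulated with a fixed spread and no library effects, a simpler setting than these data.

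Genes were named by rule. Between high and other wells these were up to 12 genes per direction, ranked by fold change among those averaging at least 6 log2 CPM and on 1 side in every library. Over time they were up to 8 per direction at an average log2 CPM of at least 7 whose libraries did not overlap. The measured genes of the gene lists were added whether or not they passed. The members and lists were chosen with earlier results of these data known. Replicate numbers were not used to pair the libraries in the main fits. Depth limits precision: a high-well sum of 28428 transcripts leaves genes of low level untested, and ratios and floors of 3 counts cover counting error only.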

Additional observations from a re-analysis of the deposited data

Results flagged for a closer look

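Of 25 groups of libraries checked, 1 was the share of high wells over the 5 injured libraries. Each other group held the log2 differences of 1 named gene between apoeb/apoc1-high and other wells over 6 libraries. For these differences 20 CPM was added to each level. In 2 groups a library stood far from the rest, where chance gives about 1 in 20. For EML3 the 2 dpi library stood highest at -1.059, with the others at -2.758 to -2.134. That library held the only 2 counts of EML3 in the high-well sums. For ENSDARG00000086947 the uninjured library stood lowest at -5.373, with the others at -2.932 to -1.838. Its uninjured high wells had 25.2 CPM, the level of 1 count. Both flagged values depend on the 20 CPM added.

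For 13 of 166 named or list genes, the change from 1 dpi to 3 dpi differed between the high wells and the other wells. Over all 2807 genes, 41 (1.46%) differed. Some of the 166 were named for their change between 1 dpi and 3 dpi, so the shares cannot be compared. SQSTM1 and lgals3bp.1 were added after their values were seen. The test, edgeR's quasi-likelihood test of the difference, was also chosen after the values had been seen. The log2 change was more positive in the high wells by 4.371 for g0s2, 4.054 for PLIN2, 3.075 for HES4, 2.407 for lgals3bp.1, 2.018 for SQSTM1, 1.529 for CMKLR1 and 1.214 for ccl34b.1. It was more negative in the high wells, with differences of -6.077 for grna.2, -3.26 for si:dkey-119g10.4, -2.463 for ANXA2, -2.129 for olmf4l1 and -1.648 for fth1a. The grna.2 value rests on few counts, with 0 and 24.2 CPM at 3 dpi against 270 and 63.4 CPM at 1 dpi in the high wells. Other wells had grna.2 at 1079 and 1353 CPM at 3 dpi against 464 and 86.5 CPM at 1 dpi. Over the alternatives the grna.2 difference ran from -11.007 to -4.588. For anxa5b the fitted difference was -8.828, a value that depends on the prior count because both 3 dpi high-well sums were at 0, and over the alternatives it ran from -9.451 to -3.2.

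Over the 10 alternatives run, the differences for g0s2, PLIN2, SQSTM1 and si:dkey-119g10.4 passed in each. Without 1 dpi replicate 1 the calls for HES4, lgals3bp.1, CMKLR1, ccl34b.1, anxa5b, grna.2, ANXA2 and fth1a were lost, with edgeR adjusted p up to 0.398, 0.336, 0.239, 0.442, 0.635, 0.149, 0.985 and 0.149 over the left-out libraries. For olmf4l1 the call was lost without 1 dpi replicate 2 or either 3 dpi library (edgeR adjusted p of 0.0732 to 0.548).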

How the results depend on the processing

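The excess of high wells in injured libraries kept its direction in every alternative, at 0.987 to 3.16 points over other thresholds and denominators and 1.79 to 2.16 points with 1 injured library left out. The 3 dpi minus 1 dpi difference reversed to -0.377 points with a 1% threshold and -0.637 points over all kept wells, and ran from -0.515 to 0.970 with 1 library left out. Between high and other wells, 312 genes became 152 with wells thinned to 1000, 200 with a 4% threshold, 768 with no filter on low counts and 80 with no library block, and 208 to 367 with 1 library left out. The split of directions moved too, from 100 higher and 212 lower to 42 and 38 with no library block. It was 34 and 166 with a 4% threshold and 24 and 744 with no filter. Injured against uninjured, 23 became 41 with uncapped sums, 1 with wells thinned to 1000 and 4 with DESeq2, and 15 to 27 with 1 library left out. From 1 dpi to 3 dpi, 79 became 19 with wells thinned to 1000, 37 with a 4% threshold, 19 with DESeq2 and 31 with no filter, and 29 to 72 with 1 library left out. The difference of changes, 41 genes, gave 13 to 49 with 1 library left out. The cause was not tested. For CTSD the difference between high and other wells reversed to -0.118 with no filter on low counts. The 4% threshold left 2 uninjured high wells, so injured against uninjured could not be fitted. For genes that passed, 701, 146 and 295 recomputed values between wells, between injured and uninjured and between 3 dpi and 1 dpi kept their direction and call, and 140, 56 and 171 kept the direction only. Another random thinning and the alternatives of the difference of changes were chosen after seeing the data.

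The labels do not say that replicate numbers mark a shared batch, and the replicate 1 minus 2 differences at 1 dpi and 3 dpi correlated at 0.139 over 1034 genes. With the replicate block, 20 genes passed for injured against uninjured and 101 for 3 dpi against 1 dpi, with 10 of the 23 and 75 of the 79 calls shared. Of 16 named genes and list genes called between injured and uninjured, 8 lost their call under the block: histh1l1 and 7 muscle genes (pvalb2, MYL1, tpma, ckmb, MYL11, atp2a1 and ckma). The sums of 28428 to 52878 transcripts limit the time comparisons to 1034 genes.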

Other observations

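Genes of cytosolic ribosomal proteins, chosen after their values had been seen, were lower in the apoeb/apoc1-high wells than in the other wells. Of 71 tested, 0 were higher and 58 lower in edgeR's quasi-likelihood test. Over all 2807 genes, 3.56% were higher and 7.55% lower. The median log2 difference was -0.68 against -0.12 over all genes. Summed over these genes, uninjured high wells gave 9.30% of their transcripts, the libraries of 1 dpi gave 10.2% and 8.68%, that of 2 dpi 7.79%, and those of 3 dpi 12.5% and 9.39%. The other wells gave 11%, then 12.7% and 10.6%, 12.7%, and 18.6% and 13% in the same order, so the high wells were lower in each of the 6 libraries. Within the high wells none of 69 tested ribosomal protein genes passed between 3 dpi and 1 dpi (median 0.12) or between injured and uninjured. Over all 1034 genes 79 (7.64%) and 23 (2.22%) passed, and 227 and 88 had an unadjusted p under 0.05 in the same test. What else moved with this difference was not tested.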
